A study of Mus musculus with 16 samples.

Results

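The 34 aminoacyl-tRNA synthetase genes described here were taken from the deposited counts by gene symbol, out of 23284 symbols counted. They comprise 20 genes for enzymes of the cytosol and 14 for enzymes of mitochondria. The list was set by gene family and not by a threshold on values, though it was chosen with earlier results of these data known. RNA-seq was made from mouse lung tumors on a mixed 129/SvJ and C57BL/6 background, after Cre recombinase had been delivered into the trachea by an adenovirus with a CMV promoter, which is active in many cell types. The comparison is between 9 tumors labelled Max -/- (Max null, tumors 1 to 9) and 7 labelled Max wild-type (tumors 1 to 7), all titled RP, letters that the labels do not spell out. In this field RP usually stands for loss of Rb1 and Trp53 together, the pair of deletions used to model small cell lung cancer in mice. Ages, sexes and the number of mice are not given, so each p-value speaks only for the variation among these 16 samples.

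Most aminoacyl-tRNA synthetases join 1 amino acid to the tRNAs that read its codons, the step that sets the genetic code in protein synthesis. Most cytosolic enzymes have a separate mitochondrial counterpart, encoded in the nucleus and imported, that charges the tRNAs made from mitochondrial DNA. Several cytosolic enzymes sit together in a multi-synthetase complex, and many synthetase genes are targets of ATF4, the transcription factor of the amino acid stress response. MAX is the partner that MYC family proteins need to bind DNA, at the E-box CACGTG, and MYC is known for driving genes of protein synthesis.

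Between 8.66 and 15.1 M reads per tumor fell in genes. The share of reads that aligned to more than 1 place was 9.17% to 11.8% in the Max null tumors and 12.3% to 22.2% in the wild-type tumors, so the groups did not overlap (exact permutation test over 11440 splits, two-sided, p = 8.74e-05), and wild-type tumors 2, 4 and 7 had the highest shares. Across genes, the log2 level relative to the mean of each gene over the 16 tumors was correlated with log2 transcript length. The correlation was 0.140 ± 0.090 (SD, n = 9) in Max null and -0.147 ± 0.240 (SD, n = 7) in wild-type tumors (exact permutation p = 0.00271). These values compare tumors with each other and do not show that long genes had higher or lower levels than short ones. Max RNA was no lower in tumors carrying the Max -/- label (log2 difference 0.18 ± 0.11 SE, adjusted p = 0.281), and a count over the whole gene cannot show a deletion that leaves a transcript. Rb1 (-0.54) and Trp53 (-0.66) were not called. The 8 neuroendocrine tumor markers summed to 3619 to 7014 CPM (counts per M reads in genes) in Max null and 3662 to 26780 CPM in wild-type tumors, with none called. Of the other marker lists, called genes were the alveolar type 2 gene Abca3 (higher, 1 of 7) and the alveolar type 1 gene Pdpn (lower, 1 of 5). For comparison, 7.4% of all genes tested were called higher and 8.64% lower. Of the 7 alveolar type 2 markers 5 were above 0 and 2 below. The other 4 alveolar type 1 markers were above 0. The Pdpn call held in 9 of 16 fits leaving out 1 tumor and was lost without wild-type tumors 2, 4 and 7 (adjusted p = 0.259). The macrophage genes Cd68, C1qa and C1qb were called lower (3 of 9 immune markers tested, against 8.64% of all genes called lower). Of these 9 markers 8 were below 0, and the macrophage gene Csf1r was above 0 and not called (0.35, adjusted p = 0.240). The 3 macrophage calls were lost without wild-type tumors 2, 4 and 7 (adjusted p = 0.0921 for Cd68, 0.201 for C1qa and 0.0790 for C1qb) and with the share of multiply aligned reads as a covariate, and that of C1qa held in 10 of 16 fits leaving out 1 tumor. No club and ciliated, endothelial or fibroblast marker was called (6 tested in each list). The summed immune markers were 115 to 264 CPM in Max null and 155 to 609 CPM in wild-type tumors. The part that these cells play in the synthetase values was not tested. In bulk tumors, fewer cells of a type and less RNA per cell cannot be told apart.

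All 34 synthetase genes passed the filter on low counts. Of these 34 genes 4 passed the threshold, 1 of the 20 cytosolic and 3 of the 14 mitochondrial genes. A gene was called when its Benjamini-Hochberg adjusted p over all 14825 genes tested, from edgeR's quasi-likelihood test, was under 0.05. Among the 20 cytosolic genes none was called higher and Yars was called lower in Max null tumors. Among the 14 mitochondrial genes Ears2 and Mars2 were called higher and Lars2 lower. Over all genes tested 7.4% were called higher and 8.64% lower, which in lists of 20 and 14 would come to 1 or 2 genes in each direction, so the number of calls is near the background. The median log2 difference (Max null minus wild-type) was -0.14 for the cytosolic genes, with 4 above 0 and 16 below, and 0.15 for the mitochondrial genes, with 8 above 0 and 6 below. The median over all genes tested was -0.03. When single tumors were left out, the cytosolic median ran from -0.17 to -0.06. It was -0.06 without wild-type tumor 6 and also without wild-type tumor 7. The mitochondrial median ran from 0.06 without wild-type tumor 2 to 0.27 without wild-type tumor 6. With the share of multiply aligned reads as a covariate the cytosolic median was 0.03 and the mitochondrial median 0.21, and no synthetase gene was called. Under that covariate 10 genes of 14825 were called in all.

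**Figure D1:**
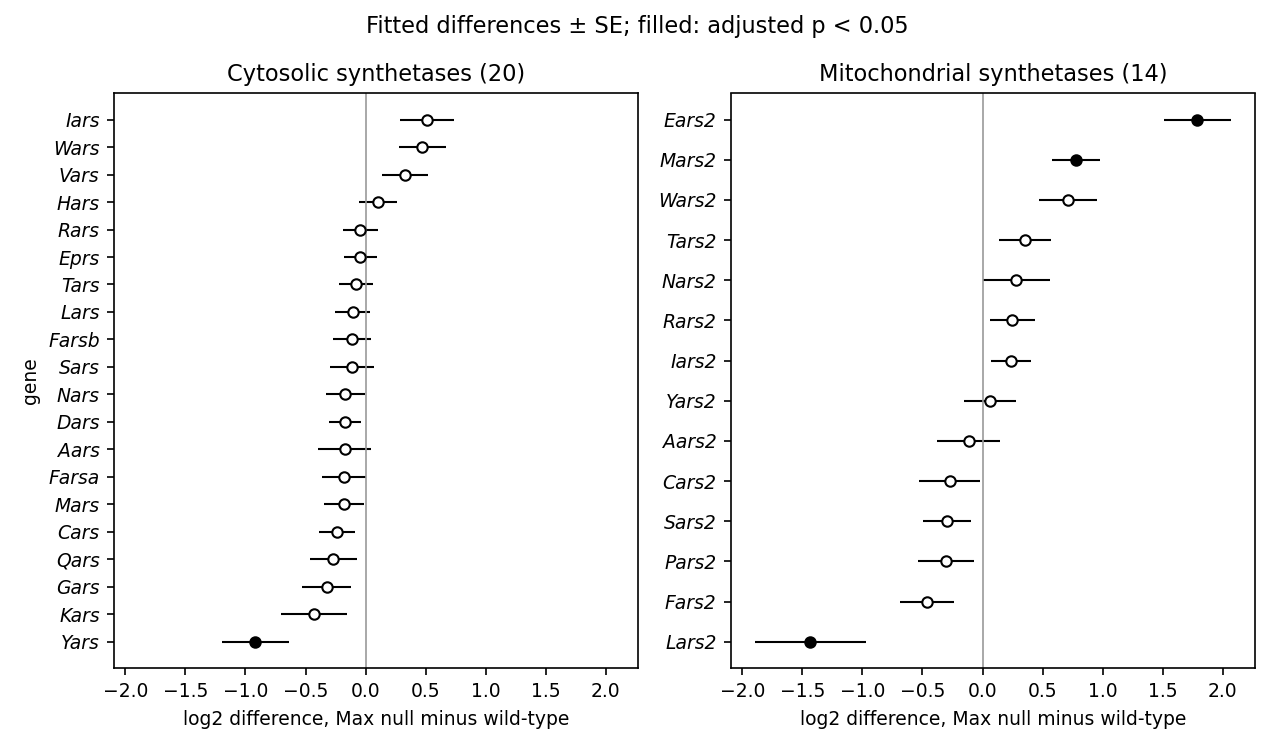
Fitted log2 difference (Max null minus wild-type) of each synthetase gene, cytosolic on the left and mitochondrial on the right, with bars of 1 SE; filled points have an adjusted p under 0.05. Most cytosolic points lie within 0.5 of 0, while Ears2 at 1.79 and Lars2 at -1.43 stand at the ends of the mitochondrial panel.

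Ears2, the mitochondrial glutamyl-tRNA synthetase, showed the clearest separation. Its level was 10.7, 17.2 and 27.8 CPM (lowest, median, highest) in Max null tumors and 2.57, 5.03 and 8.69 CPM in wild-type tumors. Every Max null tumor was above every wild-type tumor, which held for 1.56% of all genes tested in either direction. The means were 18.5 ± 5.83 CPM (SD, n = 9) and 5.34 ± 1.99 CPM (SD, n = 7), and the fitted log2 difference was 1.79 ± 0.28 (SE, adjusted p = 0.00213). These values rest on 159 reads per tumor on average and 22 in the tumor with the fewest Ears2 reads. The call held when any 1 of the 16 tumors was left out (1.67 to 1.95) and without wild-type tumors 2, 4 and 7 (1.64, adjusted p = 0.0268), where 1.68% of 15276 genes were called. It was lost with the share of multiply aligned reads as a covariate, at nearly the same size (1.75 ± 0.42, adjusted p = 0.127). Among the 14 mitochondrial promoters searched, the E-box was found in that of Ears2 alone, a share of 7.14% against 7.15% of all 32851 promoters. Whether the E-box bears on the Ears2 difference was not tested.

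Mars2, the mitochondrial methionyl-tRNA synthetase, was the other gene whose groups did not meet. It stood at 6.30, 7.79 and 9.81 CPM in Max null tumors and at 3.63, 4.50 and 6.28 CPM in wild-type tumors. The gap between the lowest Max null tumor, number 9, and the highest wild-type tumor, number 1, was within counting error, at 77.6 reads per tumor on average. The fitted log2 difference was 0.78 ± 0.20 (SE, adjusted p = 0.0182), and leaving out single tumors gave 0.73 to 0.88, always called. A correction for transcript length lowered it to 0.27 (adjusted p = 0.395). That correction used an annotated transcript of 11294 bases, long for this gene, so the corrected value depends on that length. Mars2 was not called without wild-type tumors 2, 4 and 7 (0.71, adjusted p = 0.105).

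Wars2, the mitochondrial tryptophanyl-tRNA synthetase, came next. Its CPM was 17.5, 31.5 and 45.2 in Max null and 11.1, 19.4 and 30.9 in wild-type tumors. The ranges overlapped, with 8 of 9 Max null tumors above the wild-type median and 5 above the highest wild-type tumor. The difference of 0.71 ± 0.24 just missed the threshold (adjusted p = 0.0528). It was called when Max null tumor 5, Max null tumor 9 or wild-type tumor 3 was left out. The other mitochondrial genes with differences above 0 were Tars2 (0.35), Nars2 (0.28), Rars2 (0.25), Iars2 (0.24) and Yars2 (0.06), none of them called. Those below 0, besides Lars2, were Aars2 (-0.12), Cars2 (-0.27), Sars2 (-0.30), Pars2 (-0.30) and Fars2 (-0.46), also not called. Iars2 shares 30.5% of its exon bases with Rab3gap2 on the opposite strand, and since the strand setting of the counting is not given in the sources used here, reads of the overlapping genes cannot be told apart.

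**Figure D2:**
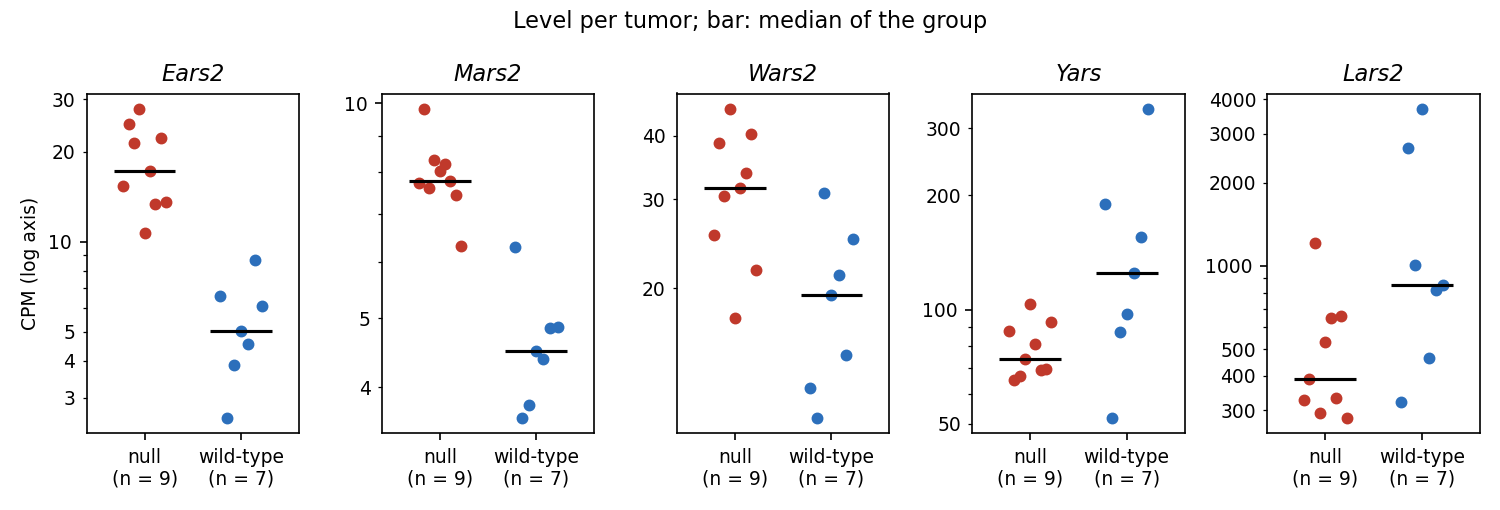
Level of 5 synthetase genes in each tumor (CPM, log axis, a separate scale for each gene), Max null in red and wild-type in blue, with a bar at the group median. The groups are separate for Ears2 and Mars2, overlap for Wars2 and Lars2, and for Yars the Max null tumors lie in a narrow band of 65.5 to 103 CPM while the wild-type tumors run from 51.9 to 338 CPM.

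Yars, the cytosolic tyrosyl-tRNA synthetase, was the cytosolic gene called lower. Max null tumors lay at 65.5, 74.2 and 103 CPM (lowest, median, highest). The 7 wild-type tumors, in order of their numbers, had 190, 51.9, 87.3, 97.5, 125, 155 and 338 CPM. The wild-type range enclosed the whole Max null range, and wild-type tumor 7 alone exceeded every Max null tumor more than 3-fold. None of the 9 Max null tumors was above the wild-type median of 125 CPM. The fitted log2 difference was -0.92 ± 0.28 (SE, adjusted p = 0.0345). The call held in 9 of the 16 fits that left out 1 tumor and was lost without Max null tumor 2, 3, 4, 6, 7 or 8 or without wild-type tumor 7, where the difference was -0.59 (range of the adjusted p over the 16 fits 0.0157 to 0.0873). It was called without wild-type tumors 2, 4 and 7 (-0.82, adjusted p = 0.0424) and not with the share of multiply aligned reads as a covariate (-0.40, adjusted p = 0.656) or tumor number as a replicate block (-0.71, adjusted p = 0.158).

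The remaining 19 cytosolic genes were not called. Iars, for isoleucine, had the largest difference above 0 (0.51 ± 0.22, adjusted p = 0.120), with 73.96 to 132 CPM in Max null and 29.1 to 123 CPM in wild-type tumors. Wars, for tryptophan, followed at 0.47 ± 0.19 (adjusted p = 0.101), then Vars, for valine, at 0.33 and Hars, for histidine, at 0.10. All 9 Max null tumors lay above the wild-type median for Iars, Vars and Hars, and 7 of 9 for Wars. Vars was called when wild-type tumor 1, its highest tumor at 338 CPM, was left out, and Iars when wild-type tumor 6 was.

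Genes of the multi-synthetase complex lay on both sides of 0. Besides Iars these were Eprs (-0.04), Rars (-0.04), Lars (-0.11), Dars (-0.17), Mars (-0.18), Qars (-0.27) and Kars (-0.43). Eprs charges 2 amino acids, glutamate and proline, from a single protein, and Kars, like Gars (-0.33), encodes both the cytosolic and the mitochondrial enzyme of its amino acid. The genes of both subunits of the phenylalanine enzyme, Farsb (-0.11) and Farsa (-0.18), were close to each other. The other cytosolic genes were Tars (-0.08), Sars (-0.11), Nars (-0.17), Aars (-0.17) and Cars (-0.24). Aars shares 23.1% of its exon bases with Exosc6 on the same strand, so its level is uncertain.

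The spread between tumors was lower for the cytosolic genes than for the median gene, without matching for level. The median SD of log2 CPM was 0.242 across the Max null tumors and 0.363 across the wild-type tumors for the 20 cytosolic genes, against 0.411 and 0.588 for all genes tested. For the 14 mitochondrial genes it was 0.373 and 0.524. Within the wild-type group 1 tumor stood out: wild-type tumor 7 had the highest level of all 16 tumors for 11 of the 20 cytosolic genes. Wild-type tumors 1 and 6 held that place for 3 genes each, and Max null tumors 4, 5 and 9 for 1 each. The summed cytosolic genes came to 2131 to 2680 CPM in Max null and 2013 to 3824 CPM in wild-type tumors, the highest being tumor 7.

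**Figure D3:**
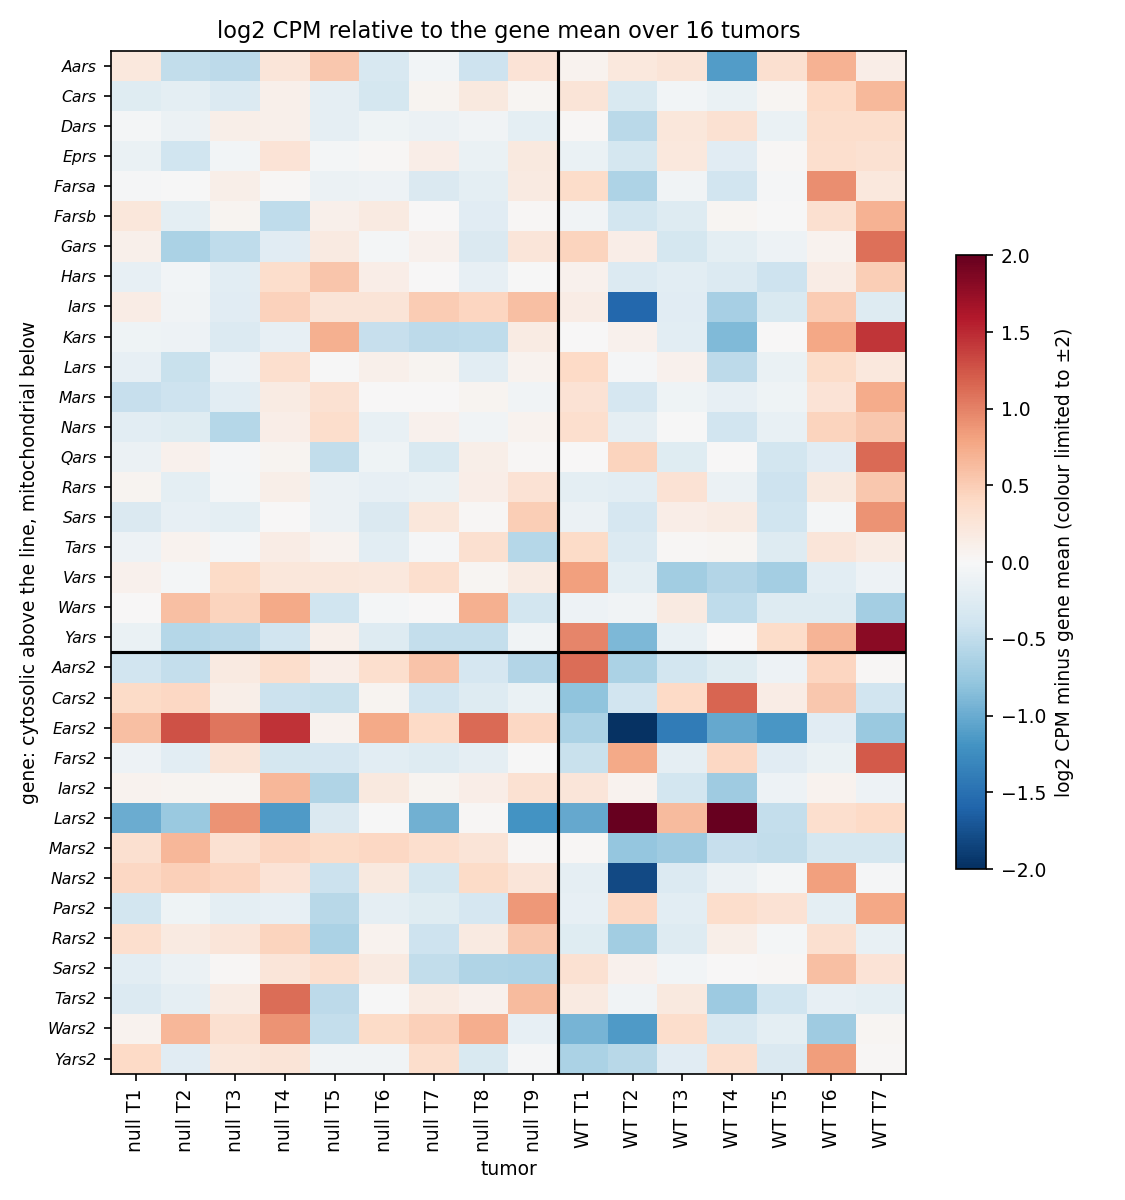
log2 CPM of the 34 genes in each of the 16 tumors, relative to the mean of the gene over all tumors (colour limited to 2 either way), cytosolic genes above the horizontal line and mitochondrial genes below. Red cells gather in the column of wild-type tumor 7 for the cytosolic genes, the Ears2 row is red in Max null and blue in wild-type tumors, and the Lars2 row is darkest in wild-type tumors 2 and 4.

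Averaged on the log2 CPM scale, the cytosolic genes had 6.77 ± 0.10 (SD, n = 9) in Max null and 6.83 ± 0.31 (SD, n = 7) in wild-type tumors. All 14 mitochondrial genes had 4.72 ± 0.17 and 4.56 ± 0.19, and the cytosolic minus the mitochondrial mean was 2.05 ± 0.22 in Max null and 2.27 ± 0.28 in wild-type tumors. Without Lars2, left out because its counts moved with those of a ribosomal RNA gene and chosen so after its values were seen, the mitochondrial genes had 4.40 ± 0.17 and 4.14 ± 0.21. The cytosolic mean minus this mean was 2.37 ± 0.22 and 2.69 ± 0.22. The ranges of this last difference overlapped, at 2.13 to 2.84 and 2.31 to 2.99, the highest of the Max null tumors being number 5 and the lowest of the wild-type tumors number 4. These means are given as a description with no test.

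**Figure D4:**
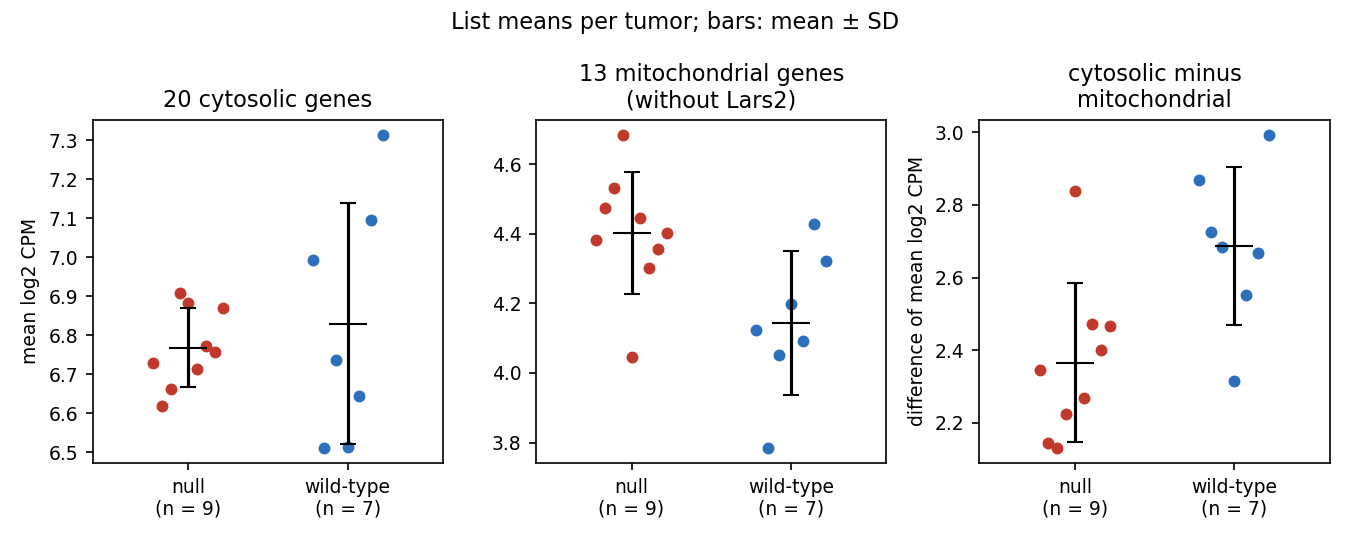
Mean log2 CPM per tumor of the 20 cytosolic genes, of 13 mitochondrial genes without Lars2, and the difference of both means; points are tumors, crosses and bars are mean and SD of each group. The cytosolic means overlap at 6.77 and 6.83, and the mitochondrial mean is 4.40 in Max null against 4.14 in wild-type tumors.

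For 12 amino acids both the cytosolic and the mitochondrial gene were among the 34. The log2 difference of the mitochondrial gene was above that of its cytosolic counterpart for 8 of the 12. Among these 8 the widest contrasts were glutamate (1.79 for Ears2, -0.04 for Eprs), tyrosine (0.06 for Yars2, -0.92 for Yars) and methionine (0.78 for Mars2, -0.18 for Mars). Leucine went the other way, with -1.43 for Lars2 and -0.11 for Lars, a contrast wider than those of tyrosine and methionine. For tryptophan both genes were above 0 (0.71 and 0.47), and for isoleucine too (0.24 and 0.51). Whether the 2 genes of a pair differed in their response was not tested.

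Lars2, the mitochondrial leucyl-tRNA synthetase, was counted far above the other mitochondrial genes. Its counts moved with those of a ribosomal RNA gene across tumors, as given with its values, and gene counts cannot tell apart whether they hold reads of ribosomal RNA, so neither its level nor its difference is known to be that of the synthetase mRNA. Per kilobase of transcript it stood at 233 CPM over all tumors, against 20.6 for Rars2 and 20.5 for Tars2, the next highest and not separable from each other beyond their spread, and 0.573 for Mars2, the lowest. The Mars2 value rests on an annotated transcript of 11294 bases, long for this gene. Among cytosolic genes the level per kilobase ran from 86.7 CPM for Gars to 19.3 CPM for Cars. Gars had 128, 193 and 234 CPM (lowest, median, highest) in Max null and 156, 208 and 424 CPM in wild-type tumors, and Cars had 42.0, 47.6 and 62.0 CPM against 43.7, 55.4 and 84.4 CPM. Both overlapped between the groups.

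In CPM, Lars2 was 282, 390 and 1209 (lowest, median, highest) in Max null and 321, 852 and 3692 in wild-type tumors. The ranges overlapped, the highest Max null tumor was number 3, and wild-type tumors 2 and 4 lay far above the rest, at 2662 and 3692 CPM. The fitted log2 difference was -1.43 ± 0.46 (SE, adjusted p = 0.0422). The call held in 6 of the 16 fits that left out 1 tumor, and was lost without Max null tumor 1, 2, 4, 6, 7, 8 or 9 or wild-type tumor 2, 4 or 7 (-1.69 to -0.98 over the 16). Without wild-type tumors 2, 4 and 7 together the difference was -0.33 (adjusted p = 0.697), and with the share of multiply aligned reads as a covariate it was -0.23 (adjusted p = 0.914).

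Across tumors Lars2 followed Rn45s, the gene of the ribosomal RNA precursor, which was picked for this comparison after its values were seen. Rn45s had 1141, 2103 and 7670 CPM in Max null and 1765, 5078 and 28327 CPM in wild-type tumors (log2 difference -1.74 ± 0.55, adjusted p = 0.0401). Over 16 tumors the Pearson correlation of log2 CPM was 0.975 and Spearman's rho 0.962 (permutation test with 100000 resamples, p = 1e-05 for each, the smallest it can give, adjusted over the 34 genes 0.00034). Without wild-type tumors 4 and 2, the farthest from the median of Rn45s, r was 0.958. Within the Max null tumors r was 0.979 and rho 0.917 (exact permutation p = 0.000102 for r, n = 9), and within the wild-type tumors r was 0.963 and rho 0.964 (exact permutation p = 0.000794 for r, n = 7). Rn45s exceeded Lars2 by 3.50 to 6.35 times in Max null and 4.52 to 9.10 times in wild-type tumors. With log2 Rn45s as a covariate, added after seeing the data, the Lars2 difference was 0.05 (adjusted p = 0.925), and Ears2 stayed called (1.71, adjusted p = 0.0250). Of the windows of 50 bases in the longest annotated protein-coding Lars2 transcript, 0.078% recurred in transcripts of other annotated genes, mainly Gm15564. Rn45s had no matched transcript in that annotation, so sequence shared between Lars2 and Rn45s was not tested. The other genes past an adjusted 0.05 for r were Iars (r = -0.727, rho = -0.635, permutation p = 0.00220 for r, adjusted 0.0374, r without those 2 tumors -0.564) and Fars2 (r = 0.691, rho = 0.618, permutation p = 0.00413 for r, adjusted 0.0468, r without those 2 tumors 0.612), and for both rho missed it (adjusted 0.142).

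**Figure D5:**
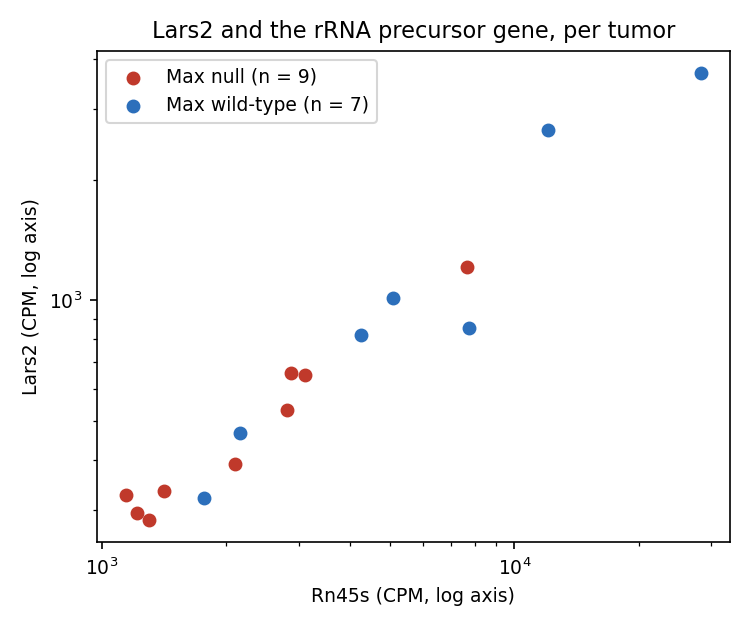
Lars2 against the ribosomal RNA precursor gene Rn45s in each of the 16 tumors (CPM, both axes log), Max null in red and wild-type in blue. The points of both groups lie along 1 line (r = 0.975), with wild-type tumors 2 and 4 at its upper end.

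Promoter sequences, from 250 bases before to 50 after the start of each gene in RefSeq on build GRCm38.p6, were matched for 12 cytosolic and 13 mitochondrial genes, the latter with 14 promoters. Cars, Hars, Lars, Mars, Nars, Rars, Vars, Wars and Pars2 were not matched. The E-box CACGTG, a palindrome that reads the same on both strands, was found in 4 of the 12 cytosolic promoters (33.3%), 1 of the 14 mitochondrial promoters (7.14%) and 7.15% of 32851 promoters in all. TGATGNAA, the core of the element that ATF4 binds, searched on both strands, was in 5 of the 12 cytosolic promoters (41.7%), none of the mitochondrial and 3.97% of all. The windows of 30 bases below show the motif in capitals, for the called genes Ears2 and Yars and for Iars and Aars, whose promoters hold both motifs, as does that of Tars. They are written on the gene's own strand, so an ATF4 core on the other strand appears as its reverse complement. The Aars promoter holds another ATF4 core, in the window chr8:111033719-111033748, that is not printed.
Ears2, E-box, chr7:122067048-122067077, minus strand: cgcgaaggagccCACGTGtgtgtttctagt
Yars, ATF4 core, chr4:129189895-129189924, plus strand: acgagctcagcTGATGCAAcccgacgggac
Iars, E-box, chr13:49682049-49682078, plus strand: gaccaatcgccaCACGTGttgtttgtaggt
Iars, ATF4 core, chr13:49682126-49682155, plus strand: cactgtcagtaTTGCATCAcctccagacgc
Aars, E-box, chr8:111033684-111033713, plus strand: agtcaaccctgtCACGTGacactccatgtc
Aars, ATF4 core, chr8:111033840-111033869, plus strand: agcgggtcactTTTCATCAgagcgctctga
The 4 cytosolic genes with the E-box had log2 differences of 0.51 (Iars), -0.08 (Tars), -0.11 (Farsb) and -0.17 (Aars), and Ears2 had 1.79. The 5 with the ATF4 core had -0.92 (Yars), -0.33 (Gars), -0.17 (Aars), -0.08 (Tars) and 0.51 (Iars). Genes with either motif thus lay on both sides of 0, and a match of letters is no evidence of binding.

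Genes that act beside the synthetases were read from lists chosen with earlier results of these data known. Of 13 partners, which include scaffold proteins of the complex and enzymes that finish or proofread charged tRNAs, Sepsecs was called higher and Qrsl1 lower, with a median of -0.15, and 1 of 13 in each direction is near the 7.4% and 8.64% of all genes. Sepsecs, which converts serine bound to its tRNA into selenocysteine, had 11.3, 12.7 and 21.98 CPM in Max null and 2.57, 5.49 and 9.88 CPM in wild-type tumors. Like Ears2 it did not overlap between the groups (1.22 ± 0.28, adjusted p = 0.0112). Qrsl1, a subunit of the amidotransferase that makes glutaminyl-tRNA in mitochondria from the product of glutamyl charging, had -0.54 ± 0.18 (adjusted p = 0.0477), a call that held in 3 of 16 fits leaving out 1 tumor. The scaffold genes Aimp1 (-0.50), Aimp2 (0.15) and Eef1e1 (-0.02) were not called. Tarsl2, a further threonyl-tRNA synthetase gene that the list held and that is named after its value was seen, had 0.70 ± 0.24 (adjusted p = 0.0504).

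Genes that make and mature tRNAs were called at about the share of all genes. Of 21 genes of tRNA transcription by RNA polymerase III, 2 were called higher and none lower (7.4% and 8.64% over all genes), with a median of 0.07. Polr3e, a polymerase subunit, had 36.9, 46.97 and 56.2 CPM in Max null and 15.9, 19.7 and 38.1 CPM in wild-type tumors (0.96 ± 0.18, adjusted p = 0.00459). Its groups met only at their edges. Gtf3c1, a subunit of the factor TFIIIC that binds tRNA genes, had 0.88 ± 0.23 (adjusted p = 0.0214). Of 19 genes of tRNA maturation and export, Elac2, which trims the 3' ends of tRNA precursors, was called higher (0.81 ± 0.19, adjusted p = 0.0129). Rpp21 (-0.77) and Pop5 (-0.98), subunits of RNase P that trims the 5' ends, were called lower, so 1 of 19 was higher and 2 of 19 lower, and the median was -0.11. Rpp21 and Pop5 kept their calls in 6 and 4 of 16 fits leaving out 1 tumor, and without wild-type tumors 2, 4 and 7 they had -0.19 and -0.10.

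The amino acid stress pathway can be set off by uncharged tRNA through the kinase GCN2. Of 8 genes of stress sensing, Eif2ak3, the kinase PERK of the endoplasmic reticulum, was called higher (0.60 ± 0.18, adjusted p = 0.0305, lost without Max null tumor 7 or wild-type tumor 4 or 7), and Eif2ak4, the gene of GCN2, was not (0.48, adjusted p = 0.0821). The list median was 0.07. Of 21 genes of the ATF4 list, 2 were called higher and 2 lower, with a median of -0.23. Against 7.4% called higher and 8.64% lower over all genes, these counts are near the background.

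Atf4 itself had 163, 181 and 242 CPM (lowest, median, highest) in Max null and 251, 260 and 584 CPM in wild-type tumors. Every Max null tumor was below every wild-type tumor (-0.72 ± 0.18, adjusted p = 0.0163). Ddit3, the stress factor CHOP, was lower by a wider margin (-1.30 ± 0.27, adjusted p = 0.00672), with 11.9, 15.3 and 29.2 against 18.5, 41.8 and 80.4 CPM. Slc7a5, a transporter of large neutral amino acids (1.06 ± 0.33, adjusted p = 0.0393), and Sesn2, a leucine sensor (0.72 ± 0.24, adjusted p = 0.0472), were called higher, in 6 and 3 of 16 fits leaving out 1 tumor. Atf4 was highest in wild-type tumor 6 and Ddit3 in wild-type tumor 7, which were also the 2 tumors with the highest cytosolic synthetase sums. In wild-type tumor 7, however, Atf4 was 275 CPM, below the 299 CPM of wild-type tumor 5. Wild-type tumor 1, with a cytosolic sum of 2836 CPM, had the lowest wild-type values of Atf4 (251 CPM) and Ddit3 (18.5 CPM). A relation between these genes and the synthetases was not tested. Of the 12 genes called in these related lists, 1 stayed called, Atf4, without wild-type tumors 2, 4 and 7 (-0.87, adjusted p = 0.0444), and with the share of multiply aligned reads as a covariate none did. Wars is a known interferon target. Of 12 tested interferon genes none was called by edgeR (2 had an unadjusted p under 0.05). The median was -0.46, and 11 were below 0, the lowest at -1.51. Irf1, a transcription factor of that response, was the only one above 0 (0.03).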

How the data were processed

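The authors deposited a table of raw read counts by symbol for each of 16 tumors. The submitters' processing notes list HTSeq 0.6.1, TopHat2 2.0.12 (TopHat also by name alone), bcl2fastq 1.8.4 and build mm9, in no stated role. The annotation and the strand setting were not given in the sources used here. Totals of reads outside genes (29.2% to 45.7% of a file) were left out. Groups came from the labels. Counts were tested with edgeR 4.0.16 (R 4.3.3; TMM factors, filterByExpr, quasi-likelihood F test, Benjamini-Hochberg over 14825 genes), and the scripts were tested on simulated data. SE is the size of the log2 difference over the root of F. CPM use TMM-scaled library sizes, and log2 CPM a prior count of 2. Lengths came from GENCODE M21, matched by symbol. The highest correlation between 2 libraries was 0.963, so none was a duplicate. Every synthetase gene was named. Called genes, genes whose groups do not overlap, and the highest and lowest per kilobase got values per tumor. From each related list at most 4 called genes were named or, with none, the 2 of highest mean CPM, of which 1 is not reported here. Members and lists were chosen with earlier results of these data known. Alternatives were other factors, DESeq2 1.42.0, other filters, a replicate block, covariates, a length correction and left-out tumors.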

Additional observations from a re-analysis of the deposited data

Results flagged for a closer look

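Within each group, the highest and the lowest tumor of every synthetase gene were compared with the rest (34 genes in 2 groups, 68 sets of values), and 7 sets had a tumor set apart by more than Dixon's 95% critical value. Chance gives about 1 in 20. Of these, 3 were wild-type tumor 7, with 424 CPM of Gars, 251 CPM of Qars and 354 CPM of Sars. Wild-type tumor 1 had 338 CPM of Vars. Among the Max null tumors, tumor 5 had 274 CPM of Kars, tumor 3 had 1209 CPM of Lars2 and tumor 9 had 23.1 CPM of Pars2.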

How the results depend on the processing

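Of 918 values of single genes under 27 other settings, 851 kept their direction and side of the threshold, 30 lost a call, 7 gained one and 30 changed sign, none of them past the threshold after the change. The number of cytosolic genes called, 1 of 20, was 0 with tumor number as a replicate block, with the multiply aligned share and with Rn45s as a covariate, and 0 to 2 when single tumors were left out. The number of mitochondrial genes called, 3 of 14, was 1 with the replicate block, 0 with the multiply aligned share, 1 without wild-type tumors 2, 4 and 7 and 1 with Rn45s. Deviations from the group means correlated at -0.17 to 0.24 between tumors with the same number. The labels do not say whether the number marks a pair or a batch, and these correlations cannot settle it. Of all genes 2378 were called, against 318 with the block, 10 with the share, 247 with Rn45s, 256 without tumors 2, 4 and 7, 1471 and 1555 without wild-type tumor 4 or 7, and 3612 with DESeq2, which was run on 21009 genes rather than 14825, so test and filter changed together; the cause was not tested. Signs changed with the share for Eprs (0.00884), Fars2 (0.30), Farsb (0.21), Gars (0.13), Mars (0.0525), Pars2 (0.12), Qars (0.32), Rars (0.18) and Sars (0.37). They changed with the length correction for Dars (0.074), Farsb (0.013), Iars2 (-0.0242) and Rars (0.062). Without tumors 2, 4 and 7 they changed for Fars2 (0.10), Qars (0.13), Rars (0.012) and Sars (0.082), with the block for Aars2 (0.082), with Rn45s for Cars2 (0.033) and Lars2 (0.047), and with no filter for Rars (0.0030). Leaving out single tumors spanned 0 for Aars2 (-0.21 to 0.15), Eprs (-0.10 to 0.014), Farsa (-0.27 to 0.010), Farsb (-0.17 to 0.012), Rars (-0.10 to 0.051), Sars (-0.19 to 0.066) and Yars2 (-0.012 to 0.27). Depth limits the mitochondrial genes of low counts, with 22 reads for Ears2, 28 for Nars2 and 31 for Mars2 in their lowest libraries.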
